A study of Mus musculus with 4 samples.

Results

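Heat shock proteins and chaperonins were followed in the hippocampus of male C57BL/6 wild-type mice, 7 to 8 months old, on day 1 after tibial fracture surgery. The 10 genes were chosen by name, as constitutive and stress-induced chaperones of the cytosol and mitochondria, from 29300 genes in the deposited count table. They are Hspa1a, Hspa1b, Hspa8, Hsp90aa1, Hsp90ab1, Hspb1, Dnajb1, Hsph1, Hspd1 and Hspe1, and all 10 passed the filter on low counts. The surgery group was 2 mice given an open fracture of the tibial shaft fixed with an intramedullary nail under isoflurane, with tramadol for pain. The control group was 2 mice given isoflurane and tramadol without the fracture, so both groups share the anesthesia and the analgesic. Whole hippocampal tissue was sequenced, and in such bulk samples fewer cells of a type and less RNA per cell cannot be told apart.

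Chaperones bind unfolded or partly folded proteins and help them reach or regain their native shape. HSP70 proteins do this in cycles of ATP hydrolysis that J-domain proteins start and nucleotide exchange factors such as HSP110 reset, and HSP90 acts later on kinases, steroid receptors and other clients. In mitochondria, HSP60 forms a barrel that HSP10 closes as a lid. Some members are made in all cells at all times, and others are induced by heat and other proteotoxic stress through heat shock factor 1, which binds inverted repeats of the unit GAA in promoters. Neurons are known for a high level of constitutive HSC70 and HSP90 and a weak induction of HSP70.

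Promoter windows from RefSeq (GRCm38.p6, 250 bases before to 50 bases after each start) were found for 7 of the 10 genes. Hspa8, Hsp90aa1 and Hsp90ab1 had none in the table. Windows were searched on both strands for the paired units GAANNTTC and TTCNNGAA and for longer runs of alternating units, in which these pairs overlap. The stretches below show these matches, apart from 1 run of Hsph1 beyond its start, with runs of 2 or more units in capitals, each read 5′ to 3′ on the strand of its gene. They are shown because the pair of Hspa1a and Hspa1b, and the pair of Hspd1 and Hspe1, each share upstream matches but are compared gene by gene in the results. The stretches are Hspe1 (chr1:55088053-55088082, plus strand), Hspa1a (chr17:34972157-34972306, minus strand), Hspa1b (chr17:34959239-34959388, minus strand), Hspb1 (chr5:135887789-135887838, plus strand) and Hsph1 (chr5:149636352-149636379, minus strand).
Hspe1: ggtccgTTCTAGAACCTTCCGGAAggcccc
Hspa1a: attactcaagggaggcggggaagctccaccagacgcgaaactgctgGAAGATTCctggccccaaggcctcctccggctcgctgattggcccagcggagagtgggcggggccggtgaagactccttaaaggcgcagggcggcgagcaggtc
Hspa1b: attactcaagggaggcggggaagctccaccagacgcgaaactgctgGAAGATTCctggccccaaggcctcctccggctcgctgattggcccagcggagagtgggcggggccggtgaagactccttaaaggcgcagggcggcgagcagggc
Hspb1: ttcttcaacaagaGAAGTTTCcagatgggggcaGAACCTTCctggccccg
Hsph1: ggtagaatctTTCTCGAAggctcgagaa

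Among all 32851 windows of 300 bases, 7.86% held GAANNTTC, 8.52% held TTCNNGAA, 0.603% held a run of 3 or more units and 0.0244% a run of 4 or more. A run of 4 units stood at position -89 before the Hspe1 start, where positions count back from the base before the start. The second annotated start of Hspd1, with 215 bases between the 2 starts, reads in the opposite direction, so the same run lay at -144 in its window. The first Hspd1 start lies inside Hspe1, and its window held no run. The window of Hspe1 and that of the second Hspd1 start were 2 of the 8 windows with such a run. The 150 bases before Hspa1a and Hspa1b differed at 1 base, and both held 2 units at -104. Hspb1 had 2 units at -117 and again at -97. Relative to the second of its annotated starts, with the start base as position 1, Hsph1 had 2 units at -54 and 3 units at 16. Neither window of Dnajb1 held a run of 2 or more. These matches describe the letters in the windows and not binding.

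The library totals ranged from 15763432 to 18573386 counts, and 17144 genes were tested. The lists of neuronal and hippocampal excitatory neuron markers were detected in full in every mouse. Of the 6 neuronal markers, Slc17a7 fell and Gad2 rose at an adjusted p under 0.05. Of the 6 excitatory neuron markers, Wfs1 and Fibcd1 fell and Neurod6 and Zbtb20 rose by the same rule, and the list's median log2 fold change was 0.01. Astrocyte markers summed to 3045 and 2896 CPM (TMM-scaled counts relative to library size) in control and 3729 and 3500 CPM in surgery mice, most of it Slc1a2. Of the 5 astrocyte markers 3 rose, Aqp4 past the fold limit, and 1, Aldh1l1, fell at an adjusted p under 0.05. Oligodendrocyte markers summed to 3734 CPM in surgery mouse 2 and to 5081 to 5869 CPM in the other mice. The part of these cell types in the results was not tested. Transcripts of the mitochondrial genome took 2.82 and 2.53% of counts in control mice and 4.45 and 4.49% in surgery mice. Choroid plexus markers summed to between 127 and 5399 CPM, with both extremes in control mice. The log2 fold changes (surgery over control) of all genes fell with GC content of the transcript. Their median was 0.60 in the eighth of genes with the least GC and -0.34 in the eighth with the most (2140 genes each), and the GC content of a member is therefore given beside its result. With 2 mice a group, an exact permutation test of a single gene cannot go below a two-sided p of 0.333, and labels name separate mice only by number. The p-values set each group difference against a variance estimated from these 4 libraries and partly borrowed from other genes.

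The levels of the 10 genes spanned 191-fold in control mice. On the scale of CPM per kilobase of exon, the mean level over the 4 mice was 565 for Hsp90ab1, the constitutive cytosolic HSP90, and 304 for Hspa8, the constitutive cytosolic HSC70. Next was Hsp90aa1, the inducible HSP90, at 189. The mitochondrial Hspd1 (HSP60) was at 48.6, the HSP110 gene Hsph1 at 35.3 and Hspe1 (HSP10) at 29.8, and the ranges over mice of neighbours in these 3 overlapped. Dnajb1, a J-domain partner of HSP70, was at 16.4, and the small heat shock protein gene Hspb1 at 11.3. The inducible HSP70 genes were lowest, with 6.45 for Hspa1b and 2.52 for Hspa1a. All other neighbours in this order were separated in their ranges. The exon length was the union of all annotated exons of a gene, 2999 bases for Hsp90ab1, 4301 for Hspa8 and 7266 for Hsph1. The order and the separation depend on that length, and no other length was tried. They could also depend on how reads that match other genes were counted, which was not tested. Summed over members, CPM were 4413 and 4179 with control treatment against 4541 and 3928 after surgery, so the summed level overlapped between groups.

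**Figure D1:**
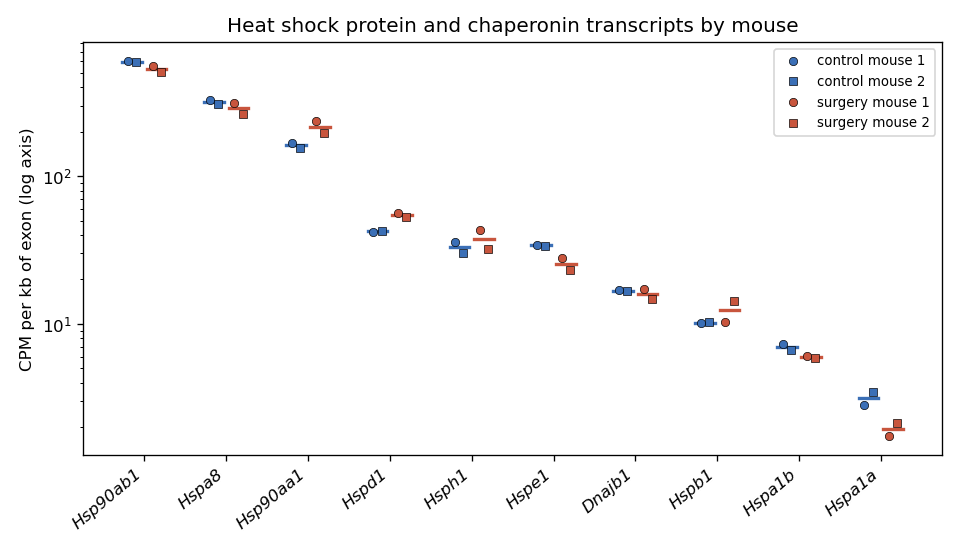
Level of each of the 10 genes in each of the 4 mice, in CPM per kilobase of exon on a log axis, with control mice in blue, surgery mice in red and short lines at group means. Hsp90ab1 is at the top (mean 565) and Hspa1a at the bottom (mean 2.52), and for most genes the groups lie close together relative to the span between genes.

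Across the 10 genes, the differences between surgery and control went both ways. At an adjusted p under 0.05, Hsp90aa1 and Hspd1 rose and Hspa1a and Hspe1 fell, and the other 6 did not pass. When a fold of 1.5 or more, or 0.67 or less, was also required, edgeR called 0 members higher (2 at an unadjusted p under 0.05) and 1, Hspa1a, lower. DESeq2 called 0 members in either direction by that rule, with an adjusted p of 0.076 for Hspa1a. On adjusted p alone, DESeq2 passed Hsp90aa1 (0.00015) and Hspd1 (0.0020) as higher. It passed Hspe1 (0.018) and Hsp90ab1 (0.044) as lower. Over all genes tested, 6.75% were called higher and 2.25% lower with the fold limit. On adjusted p alone 13.1% passed as higher and 12.8% as lower, so 2 of 10 in each direction is close to the background. At an unadjusted p under 0.05, 19.9% of all genes were higher and 19.4% lower. DESeq2 called 2.89% of the genes it fitted higher and 1.32% lower. After the correction for length and GC content, edgeR called 0.397% higher and 0.356% lower, and 7.82% were higher and 14.4% lower at an unadjusted p under 0.05. Both surgery mice were above both control mice for 2 members and below both for 4, against 33.2% and 32.2% of all genes. The median log2 fold change was -0.11 over the members and 0.01 over all genes tested, and 0.03 and -0.03 after the correction.

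**Figure D2:**
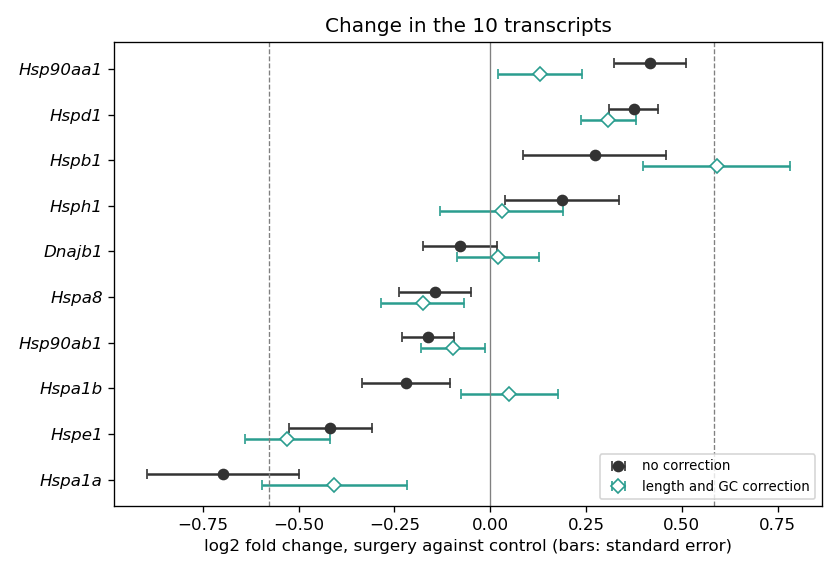
The log2 fold change (surgery over control) of each of the 10 genes with its standard error, without (filled) and with (open) a correction for transcript length and GC content, and dashed lines at folds of 0.67 and 1.5. Hsp90aa1 (0.42) and Hspd1 (0.37) lie above 0 and Hspa1a (-0.70) and Hspe1 (-0.42) below it without the correction, and with it the values for Hsp90aa1 and Hspa1a are closer to 0 at 0.13 and -0.41.

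Of the inducible HSP70 genes, Hspa1a fell and Hspa1b did not pass the test. Hspa1a (chr17:34969190-34972156, minus strand, mm10) was at 8.36 and 10.2 CPM in control mice and at 5.14 and 6.28 CPM in surgery mice, from 82 to 186 counts. Both surgery mice were below both control mice. Its level in surgery was 61.7% of control, a log2 fold change of -0.70 ± 0.20 (SE, n = 2 a group, adjusted p = 0.046 by edgeR's quasi-likelihood test). The adjusted p rose to 0.20 without control mouse 2, to 0.13 without surgery mouse 1 and to 0.055 without surgery mouse 2. With 58.9% GC, the change was -0.41 ± 0.19 (adjusted p = 0.27) after correction for length and GC content.

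Hspa1b (chr17:34956436-34959238, minus strand), its near-identical neighbour, was at 20.4 and 18.5 CPM in control mice and at 16.9 and 16.5 CPM in surgery mice. The groups did not overlap, but the log2 fold change of -0.22 ± 0.12 did not pass the test (adjusted p = 0.21). At 58.1% GC it was 0.05 ± 0.13 (adjusted p = 0.86) after correction for length and GC content, with the sign turned. The coding sequences of the pair were 99.4% identical, and 52.7% of all 75-base windows of Hspa1a also occurred in Hspa1b, so reads could have been split between them or dropped. Added together, the pair had 28.7 and 28.7 CPM in control mice and 22.1 and 22.8 CPM in surgery mice. The sum was 78.0% of control, a log2 fold change of -0.36 ± 0.09 (adjusted p = 0.035), which is inside the fold limit. It was -0.07 (adjusted p = 0.73) after correction for length and GC content, and its adjusted p lay between 0.093 and 0.117 when any 1 mouse was left out. Hspa1a also overlaps Gm20481, a gene on the opposite strand that GENCODE lists as protein coding, over 564 exonic bases, and whether counting used strand is not given in the sources used here.

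Hspa8 was the more abundant HSP70 by far, at 1426 and 1322 CPM in control mice and 1349 and 1136 CPM in surgery mice. The groups overlapped, and the log2 fold change was -0.14 ± 0.09 (adjusted p = 0.30), at 49.5% GC, and -0.18 ± 0.11 after the correction. Of 14 genes that share windows with it, 3 are small nucleolar RNA genes within it on the same strand and most others are processed pseudogenes, but the copies in the table had 26 to 36 counts a mouse in all against at least 19164 for Hspa8.

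Of the cytosolic HSP90 genes, the inducible Hsp90aa1 rose and the constitutive Hsp90ab1 did not pass the test. Hsp90aa1 (chr12:110690605-110702728, minus strand) was at 663 and 612 CPM in control mice and at 926 and 776 CPM in surgery mice. It was higher in both surgery mice, 1.33-fold, with a log2 fold change of 0.42 ± 0.09 (adjusted p = 0.022). Hsp90ab1 (chr17:45567775-45573271, minus strand) was at 1808 and 1772 CPM in control mice and at 1675 and 1524 CPM in surgery mice. It was lower in both surgery mice, at 89.3% of control, but did not pass the test (log2 fold change -0.16 ± 0.07, adjusted p = 0.13). The transcript of Hsp90aa1 has 44.9% GC and that of Hsp90ab1 51.5%, and Hsp90ab1 was at -0.10 ± 0.08 after the correction. Genes in the GC eighth of Hsp90aa1 had a median log2 fold change of 0.31, and after the correction its own was 0.13 ± 0.11 (adjusted p = 0.54). The adjusted p of Hsp90aa1 was 0.077 without control mouse 2 and 0.065 without the filter on low counts, and its log2 fold change was 0.27 without surgery mouse 1. Its processed copy Gm12346 had 79 and 88 counts in control and 126 and 112 in surgery mice, against 11191 to 14768 for Hsp90aa1.

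The ratio of Hsp90aa1 to Hsp90ab1 counts was 0.366 and 0.346 in control mice and 0.553 and 0.509 in surgery mice, a 1.49-fold difference of the means. The ratios were chosen after the values of the genes were seen, and they carry no test.

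The genes for the mitochondrial chaperonin and its lid moved in opposite directions. Hspd1 (chr1:55077835-55088243, minus strand) was at 111 and 113 CPM in control mice and at 149 and 141 CPM in surgery mice. Both surgery mice were above both control mice, 1.30-fold, with a log2 fold change of 0.37 ± 0.06 and the lowest adjusted p among the 10 genes (0.0094). Hspe1 (chr1:55088132-55091307, plus strand) was at 50.7 and 49.7 CPM in control mice and at 41.3 and 34.0 CPM in surgery mice. It fell to 74.9% of control, a log2 fold change of -0.42 ± 0.11 (adjusted p = 0.034). With 1 mouse left out, its log2 fold change ran from -0.58 (without surgery mouse 1) to -0.28 (without surgery mouse 2). The adjusted p of Hspe1 was 0.078 without control mouse 1, 0.076 without control mouse 2, 0.12 without surgery mouse 2 and 0.088 without the filter on low counts, while Hspd1 passed whichever mouse was left out.

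The GC contents of these neighbours were alike, 48.8% for Hspd1 and 48.3% for Hspe1, and both lie in a GC eighth whose median log2 fold change was 0.04. After correction for length and GC content, Hspd1 was at 0.31 ± 0.07 (adjusted p = 0.080) and Hspe1 at -0.53 ± 0.11 (adjusted p = 0.065), so neither passed but both kept their direction. The ratio of Hspd1 to Hspe1 counts was 2.19 and 2.27 in control mice and 3.62 and 4.14 in surgery mice, and the means differed 1.74-fold. The run of 4 units printed above lies before the start of Hspe1 and before the second start of Hspd1, within an annotated exon of the transcript from the first Hspd1 start. Annotated exons of the 2 genes overlap by 112 bases on opposite strands, which counting without strand would not separate. Copies of Hspd1 were few, with 26, 43, 33 and 38 counts for Hspd1-ps3 and at most 2 in any mouse for Hspd1-ps1 and Hspd1-ps4. Hspe1-ps2 and Hspe1-ps3 had at most 3 counts in any mouse.

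**Figure D3:**
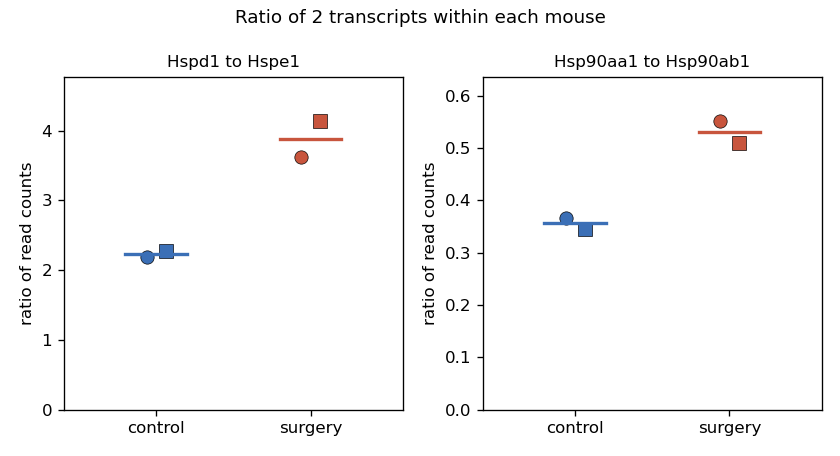
Ratios of the counts of paired genes in each of the 4 mice, with control in blue, surgery in red and lines at group means. Hspd1 over Hspe1 goes from 2.19 and 2.27 in control mice to 3.62 and 4.14 in surgery mice, and Hsp90aa1 over Hsp90ab1 from 0.366 and 0.346 to 0.553 and 0.509.

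Dnajb1 and Hsph1, which work with HSP70, did not pass the test. Dnajb1 (chr8:83608193-83612653, plus strand), which delivers clients to HSP70, was at 54.3 and 53.5 CPM in control mice and at 55.1 and 46.9 CPM in surgery mice. The groups overlapped, with a log2 fold change of -0.08 ± 0.10 (adjusted p = 0.59). At 52.4% GC it was 0.02 ± 0.11 after the correction, with the sign turned. Hsph1 (chr5:149614287-149636376, minus strand), a nucleotide exchange factor for HSP70, was at 262 and 218 CPM in control mice and at 313 and 234 CPM in surgery mice. Its log2 fold change was 0.19 ± 0.15 (adjusted p = 0.40) at 47.3% GC, and 0.03 ± 0.16 after the correction. The ratio of Hspa8 to Dnajb1 counts was 26.2, 24.7, 24.5 and 24.2 in control mice 1 and 2 and surgery mice 1 and 2, and that of Hsph1 to Hspa8 was 0.184, 0.165, 0.232 and 0.206.

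Hspb1 (chr5:135887919-135889563, plus strand), a small heat shock protein that holds unfolded proteins without ATP, was at 10.4 and 10.7 CPM in control mice and at 10.7 and 14.8 CPM in surgery mice. Only surgery mouse 2 stood above the others, and the log2 fold change of 0.27 ± 0.19 did not pass (adjusted p = 0.33). With 61.2% GC it was 0.59 ± 0.19 (adjusted p = 0.14) after correction for length and GC content. In that mouse the mural cell markers summed to 421 CPM, against 235 and 205 in control mice and 247 in surgery mouse 1, and the endothelial markers to 340 CPM against 234, 244 and 251. Of these lists, 1 of 5 tested mural markers and 1 of 7 endothelial markers were called higher, and their part in the Hspb1 value was not tested. Of the sequence windows of Hspb1, taken as for Hspa1a, 46.4% also occurred in other genes, so its reads could have been split or dropped. The processed pseudogene Hsp25-ps1, which is not among the counted genes, shared 46.4% of the Hspb1 windows. Gm9817 shared 34.6% and had at most 1 count in any mouse.

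**Figure D4:**
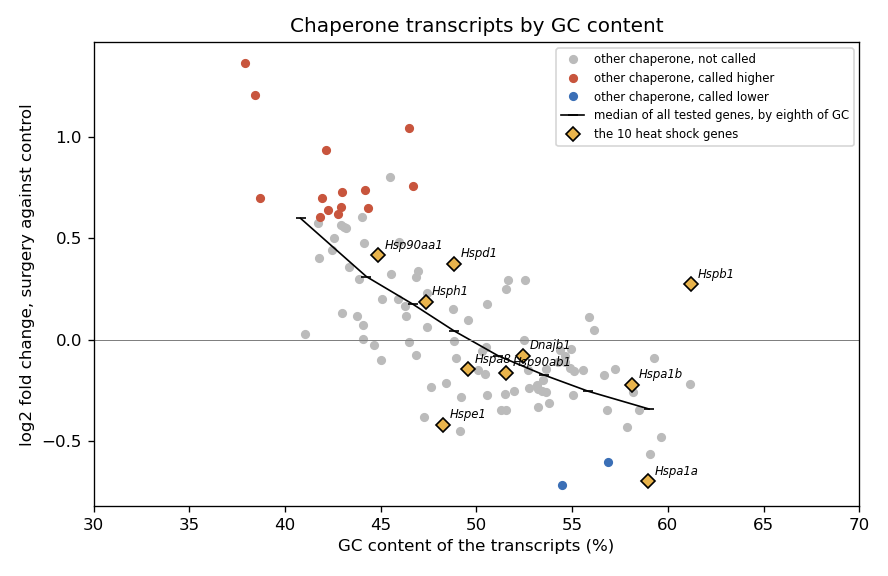
The log2 fold change (surgery over control) of the 10 genes (diamonds) and of other chaperones (grey, red where called higher and blue where called lower) against transcript GC content, over a line of the median of all tested genes in each eighth of GC content, drawn at the median GC of the eighth. The line runs from 0.60 to -0.34, and Hspd1 (0.37) and Hspe1 (-0.42) lie on opposite sides of it at nearly the same GC content.

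Other chaperones and their regulators were counted from a list of 114 genes, of which 101 were tested. Of these, 14 were called higher (13.9%) and 2 lower (1.98%), against 6.75% and 2.25% of all genes, and 50 had a positive and 51 a negative log2 fold change. Their median was -0.01. The 14 called higher had transcripts of 37.9 to 46.7% GC. After correction for length and GC content 0 of the 101 were called in either direction with edgeR. By that fit 14 were higher and 21 lower at an unadjusted p under 0.05, against 7.82% and 14.4% of all genes. DESeq2, without the correction, called 11 higher and 3 lower of 113, against 2.89% and 1.32% of all genes it fitted.

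Of the heat shock factors, Hsf2 rose with a log2 fold change of 0.70 ± 0.12 (adjusted p = 0.0092), at 38.7% GC, and its corrected value was -0.04. Hsf1, the main factor of the heat shock response, is named after its value was seen. It was at 61.6 and 58.6 CPM in control mice and at 51.8 and 42.8 CPM in surgery mice, with both surgery mice lower and an adjusted p of 0.055. Its log2 fold change was -0.35 ± 0.11 at 56.8% GC, and -0.11 after the correction (adjusted p = 0.64).

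No gene of the CCT chaperonin, the cytosolic ring that folds actin and tubulin, was called among 8 tested by edgeR or 9 by DESeq2, with log2 fold changes from -0.45 to 0.32 and a median of -0.01. At an unadjusted p under 0.05 edgeR had 1 CCT gene higher and 3 lower, against 19.9% and 19.4% of all genes. After correction for length and GC content the median of the CCT genes was -0.27, with 0 higher and 6 lower at an unadjusted p under 0.05 (14.4% of all genes were lower by that rule) and 0 called. Cct7, named after its value was seen, was at -0.45 ± 0.08 (adjusted p = 0.0096) and at -0.50 after the correction (adjusted p = 0.049), inside the fold limit. Among 6 prefoldin genes, whose product hands actin and tubulin chains to CCT, 2 were called higher, against 6.75% of all genes. DESeq2 called 1 of them higher, and 0 were called by edgeR after the correction. Vbp1 was at 19.7 and 17.7 CPM in control mice and at 46.2 and 49.9 CPM in surgery mice, a log2 fold change of 1.36 ± 0.10 (adjusted p = 0.0039), and 0.57 (adjusted p = 0.041) after correction. Pfdn4 had a log2 fold change of 0.93 ± 0.26 (adjusted p = 0.042), and 0.48 (adjusted p = 0.32) after the correction.

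J-domain proteins gave 8 called higher and 1 lower of 39 tested, against 6.75% and 2.25% of all genes. After the correction 0 were called in either direction. By that fit 7 were higher and 6 lower at an unadjusted p under 0.05, against 7.82% and 14.4% of all genes. Dnajc25 (1.04 ± 0.28), Dnajc28 (0.76 ± 0.22) and Dnajc2 (0.74 ± 0.11), a ribosome-associated factor, had the largest log2 fold changes in absolute size among those called, and were at 0.84, 0.57 and 0.40 after the correction. Of the 12 HSP70 co-chaperones, Bag4, a nucleotide exchange factor, was called higher (0.65 ± 0.09, and 0.32 with an adjusted p of 0.093 after the correction) and 0 were called lower. Of the 15 HSP90 co-chaperones, 2 were called higher and 1 lower, against the same 6.75% and 2.25% of all genes. Chordc1, which binds HSP90, was at 46.9 and 35.0 CPM in control mice and at 97.0 and 92.1 CPM in surgery mice, with a log2 fold change of 1.21 ± 0.14 (0.46 after correction, adjusted p = 0.11). Ptges3, the p23 co-chaperone, rose by 0.62 ± 0.08 on the log2 scale and was at 0.21 (adjusted p = 0.18) after the correction. Among the HSP70 and HSP110, HSP90 and small heat shock protein families outside the 10 genes, 0 of 17 tested genes were called by edgeR with the fold limit, and 0 of 22 by DESeq2. At an unadjusted p under 0.05 edgeR had 5 higher and 2 lower of the 17, against 19.9% and 19.4% of all genes. On adjusted p alone 3 passed as higher and 1 as lower, against 13.1% and 12.8% of all genes.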

How the data were processed

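Hippocampal mRNA was enriched with oligo(dT), copied from random primers and sequenced in paired ends. The authors filtered the reads, aligned them to mm10 with HISAT and deposited whole-number counts per gene. The submitters' processing notes name HISAT2 2.1.0, Bowtie2 2.2.3, TopHat2 and HTSeq 0.6.0 without giving their roles. The annotation release and the use of strand in counting are not given in the sources used here. The deposited table also holds the authors' own mean, fold changes and p-values for the comparison, which were not used.

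Surgery was compared with control (2 mice each, all 4 in 1 fit) from the deposited counts with edgeR 4.0.16 in R 4.3.3: filterByExpr with a minimum count of 10, TMM scaling, glmQLFit and glmQLFTest, with Benjamini-Hochberg adjustment over 17144 genes. Calls needed an adjusted p below 0.05 and a fold of 1.5 or more, or 0.67 or less. Standard errors are the log2 fold change divided by the root of the F statistic, and CPM values are TMM-scaled. Alternatives used DESeq2 1.42.0, other scalings, no filter, a replicate block, left-out mice and a correction for transcript length and GC content with mgcv 1.9.3. Exons, lengths, GC and shared windows of 75 bases came from GENCODE M21, which held 29238 of the 29300 gene identifiers, and 24 symbols that a spreadsheet had turned into dates were restored. The tests and the correction were tested on simulated data drawn from these libraries' means, with trended and with per-gene dispersions. The per-gene draw gave more calls of unchanged genes, and the trended draw was added after that was seen.

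All 10 members are named, with up to 3 called genes of the largest absolute log2 fold change in each group of other chaperones, and pseudogenes whose name is a member symbol followed by -ps by their counts. A gene that this rule names is not reported here. Members, lists and tests were chosen with earlier results of these data known. Depth was 15763432 to 18573386 counts a library, and replicates differed by more than sampling noise, with a chi-square per degree of freedom of 13.4 between control mice and 8.45 between surgery mice.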

Additional observations from a re-analysis of the deposited data

How the results depend on the processing

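Over all genes, 1158 called higher became 68 with the length and GC correction, 222 with the replicate block and that correction, and 2249 without the fold limit, and 754 to 1312 when 1 mouse was left out (754 without control mouse 2). The 386 called lower became 224 with library totals only, 61 with the correction, 129 with the block and the correction, 2201 without the fold limit, and 254 to 614 with a mouse left out (254 without control mouse 2, 614 without surgery mouse 1). Of the members, 0 were called higher, and 2 without the fold limit. The 1 member called lower, Hspa1a, became 0 with library totals only, without the filter, with the correction, with the block and the correction, and with DESeq2, while 2 passed as lower without the fold limit. With a mouse left out, 0 to 1 were called lower: 0 without control mouse 2 or surgery mouse 2, and without surgery mouse 1 the 1 was Hspe1 (log2 fold change -0.58) in place of Hspa1a. Of the other chaperones, 14 called higher became 0 with the correction, 0 with the block and the correction and 27 without the fold limit, and lay between 10 and 14 with a mouse left out. The 2 called lower became 1 with library totals only, 0 with the correction, 0 with the block and the correction, 13 without the fold limit, and 1 to 5 with a mouse left out (1 without control mouse 2 or surgery mouse 2, 5 without surgery mouse 1). The log2 fold change of Hspa1a plus Hspa1b was -0.31 with library totals only, -0.37 without the filter, -0.0690 with the correction, -0.0687 with the block and the correction, -0.38 with DESeq2 and -0.37 to -0.35 with a mouse left out, none of them past the threshold. Hspa1b turned to 0.0501 with the correction and 0.0523 with the block and the correction, and Dnajb1 to 0.0216 and 0.0164. With a mouse left out, Dnajb1 ran from -0.215 (without surgery mouse 1) to 0.0378 (without surgery mouse 2) and Hsph1 from -0.0512 (without surgery mouse 1) to 0.39 (without surgery mouse 2). By the same 2 fits Hspa8 ran from -0.29 to -0.02 and Hsp90ab1 from -0.25 to -0.09. Hspa8 (-0.29) passed without surgery mouse 1, Hsph1 without surgery mouse 2, and Hsp90ab1 with DESeq2 (adjusted p = 0.044) and without surgery mouse 1 (adjusted p = 0.047). The cause of these changes was not tested. The labels give same-numbered mice nothing in common but the number. Their deviations from the group means had a correlation of 0.224, and 2 pairs are too few to take the numbers as a pairing. The replicate block alone left 1289 genes called higher and 427 lower, the members' calls at 0 and 1, and Hspd1 at 0.37 (adjusted p = 0.0068). With the block and the correction, Hspd1 was 0.31 (adjusted p = 0.019) and Hspe1 -0.53 (adjusted p = 0.012). With the block and the correction Hsp90aa1 was 0.12 (adjusted p = 0.23). Hspa1a rests on 82 to 186 counts a mouse.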
